A study of Mus musculus with 12 samples.

Results

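Retinoic acid is made, destroyed and sensed by a small set of proteins, and 10 genes of that set were followed here through the growth plate: the synthesis enzymes Aldh1a1, Aldh1a2 and Aldh1a3, the breakdown enzymes Cyp26a1 and Cyp26b1, the receptors Rara, Rarb and Rarg, and the binding proteins Crabp1 and Crabp2. They were taken by symbol from the array's probe annotation, with every probe of each, which gave 15 probes for 10 of the 19526 genes named there. All 15 passed the filter on dim signal, which asks for a spot that the scanner software marks as well above background in 4 or more samples. The tissue was growth plate cartilage of the femur, from Swiss White mice aged 14 days with no treatment or altered allele in the labels, separated by microdissection of cryosections into the proliferative, the prehypertrophic and the hypertrophic zone, with 4 samples each. RNA was amplified before labelling, so 12 samples were measured on 6 two-colour Agilent arrays that each held samples of 2 different zones. Whether separate animals gave the samples of a zone is not stated in the labels, so a p-value here measures only the spread between these samples. Each sample is a piece of tissue with all its cells, and fewer cells of a type cannot be told apart from less RNA per cell.

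Retinoic acid is formed in cells from retinol, first by reversible oxidation to retinal and then by irreversible oxidation through the retinaldehyde dehydrogenases of the Aldh1a family. Enzymes of the Cyp26 family hydroxylate it and so limit where it can act, and Crabp proteins bind it in the cytosol. In the nucleus it binds receptors of the Rar family, which pair with Rxr receptors on repeated half-sites in DNA. In the growth plate retinoid signalling is known to influence the maturation of chondrocytes, and excess retinoid in young animals is known to close growth plates early.

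The best known binding site of the receptor pair is a direct repeat of a half-site with 5 free letters between the copies, and it is known from the promoters of Rarb and of Cyp26a1, which are standard examples of genes that retinoic acid itself switches on. The half-site AGGTCA and its variants AGTTCA, or else GGGTCA, or else GGTTCA, were searched in this arrangement, on both strands, in the 250 bases before each start in the RefSeq promoter table of build GRCm38.p6. The table held 13 start sites of 8 of the 10 genes; Aldh1a3 and Crabp2 were not analysed here. Only Rarb and Cyp26a1 had a match among these 8, and in the whole table a match was held by 29 of 32851 windows (0.0883%), in 28 of 27025 genes (0.104%). Both windows are printed because these genes can serve as readouts of the pathway as well as parts of it. Each reads 5′ to 3′ along the gene up to the last base before the start, and capitals mark the 2 half-sites of the repeat. A match is a description of the letters and does not show that a receptor is bound there.
Rarb, chr14:16575477-16575726, minus strand: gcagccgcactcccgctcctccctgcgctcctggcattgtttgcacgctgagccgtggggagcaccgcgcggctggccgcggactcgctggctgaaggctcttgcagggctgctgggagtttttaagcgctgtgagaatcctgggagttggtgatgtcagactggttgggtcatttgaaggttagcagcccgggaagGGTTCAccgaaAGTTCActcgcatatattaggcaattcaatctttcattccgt
Cyp26a1, chr19:37697558-37697807, plus strand: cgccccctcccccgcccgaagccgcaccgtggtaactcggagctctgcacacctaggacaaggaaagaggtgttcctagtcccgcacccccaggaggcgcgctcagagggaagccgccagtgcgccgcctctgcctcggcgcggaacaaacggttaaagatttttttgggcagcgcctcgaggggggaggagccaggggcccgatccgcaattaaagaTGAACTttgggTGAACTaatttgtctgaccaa
In Rarb the repeat lies 53 to 37 bases before the start, on the strand of the gene. In Cyp26a1 it lies 32 to 16 bases before the start, and it matches on the opposite strand.

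The share of spots well above background ran from 92.6% to 96.2% over the samples. Correlations of levels were 0.968 to 0.982 within zones and 0.889 to 0.961 between them. Markers of the zones followed the labels in part. Col10a1, the collagen of hypertrophic cartilage, was 4.74 ± 0.13 higher on the log2 scale in hypertrophic than in proliferative samples (± SE throughout for changes). Ihh, the signal that prehypertrophic chondrocytes secrete, was 3.83 ± 0.10 higher in prehypertrophic than in proliferative samples, with a change of 0.08 ± 0.10 in hypertrophic against prehypertrophic samples that did not pass (adjusted p = 0.549). Of the proliferative markers, Fgfr3 fell by 1.03 ± 0.04 in hypertrophic against proliferative samples, while Mki67 rose by 0.48 ± 0.09 and Top2a by 0.19 ± 0.05 on its brightest probe (its other 2 probes gave -0.32 and -0.12). Their summed intensity was 73735 to 81796 in the proliferative zone, 15691 to 17532 in the prehypertrophic zone and 95234 to 105622 in the hypertrophic zone. The sums of leukocyte and marrow, endothelial, osteoclast and bone markers were highest in the hypertrophic zone. The summed intensity of 10 leukocyte and marrow markers was 11609 to 33356 in the proliferative zone, 13713 to 38121 in the prehypertrophic zone and 446820 to 589931 in the hypertrophic zone. All 10 were higher in hypertrophic than in proliferative samples, and 2 were higher in prehypertrophic than in proliferative samples while 8 did not pass the test. Summed endothelial markers (7) ran from 4178 to 5695, from 5029 to 6268 and from 18903 to 22576 in the same order of zones. Osteoclast markers (5) ran from 7138 to 8001, from 4366 to 7198 and from 36439 to 40232. Osteoblast and bone markers (5) ran from 145609 to 190919, from 59692 to 76776 and from 249691 to 383831. Single markers of these lists were mixed. In hypertrophic against proliferative samples 5 endothelial markers were higher and 2 did not pass. Of the osteoclast markers 3 were higher, 1 lower and 1 did not pass, and of the bone markers 4 were higher and 1 lower. Against prehypertrophic samples 6 endothelial markers were higher and 1 did not pass. There 4 osteoclast markers were higher and 1 lower, and 3 bone markers were higher and 2 lower. The tendon and muscle sum (6 markers) was lowest in the hypertrophic zone, from 29117 to 32876, from 38049 to 41535 and from 8570 to 9390. Thbs4 in it fell by 2.04 ± 0.04 in hypertrophic against proliferative samples, while Scx and Acta1 rose. No marker of these 5 lists was below background in all 4 samples of a zone.

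**Figure D1:**
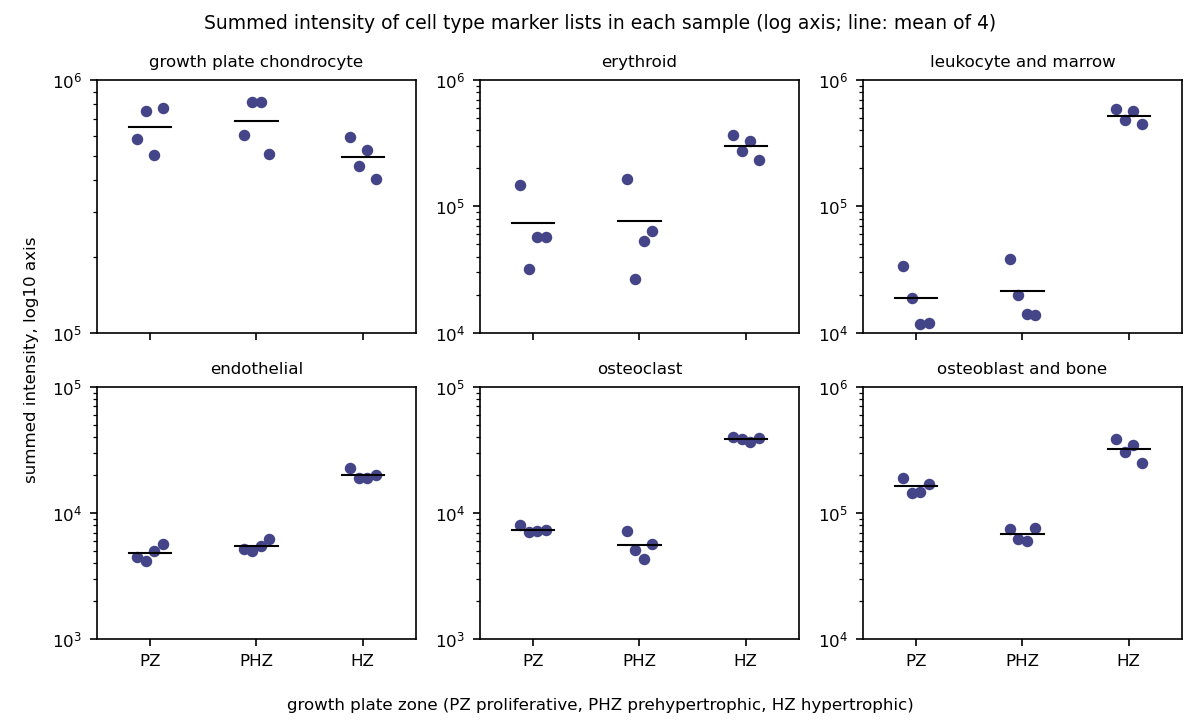
Summed intensity (log10 axis) of 6 marker lists in each of the 12 samples, with the zones in order of maturation and a line at the mean of 4. The leukocyte and marrow list lies between 11609 and 38121 in all proliferative and prehypertrophic samples and at 446820 or more in all hypertrophic samples.

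In the hypertrophic against the proliferative zone all 3 synthesis enzymes (Aldh1a1, Aldh1a2 and Aldh1a3) rose, as did 1 probe of the receptor Rarb. Of the breakdown enzymes Cyp26b1 fell and Cyp26a1 rose slightly, the binding protein Crabp2 fell, and Rarg had 1 higher and 1 lower probe. Of the 15 probes 7 were higher, 3 lower and 5 did not pass (limma, Benjamini-Hochberg adjusted p under 0.05 over all 39906 probes). Of all probes tested, 55.4% passed in this comparison, 27.6% higher and 27.8% lower, so such a call is common here and the sizes say more than the count. At least a 2-fold change was reached by 14.6% of all probes, and among the members by Aldh1a1, both Aldh1a3 probes, Cyp26b1 and 1 of the 2 Rarb probes. The median log2 change of the 15 probes was 0.32, against -0.02 over all probes. The levels of both zones did not overlap at 7 of the 15 probes, against 35.9% of all probes kept.

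Between the prehypertrophic and the proliferative zone, Aldh1a3 rose and Cyp26b1 fell by more than 2-fold. Aldh1a1 rose less, Rarg and Rarb had 1 higher probe each, and no other member passed. In all 5 probes were higher, 1 was lower and 9 did not pass, where 42.3% of all probes passed, 21.3% higher and 21% lower, and 7.54% by at least 2-fold. The median change was 0.16 for the members and 0.02 for all probes, and levels were apart at 5 of the 15 probes, against 27.5% of all probes kept.

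Between the hypertrophic and the prehypertrophic zone the largest member changes were those of Rarb and Aldh1a3, and Aldh1a1 and Aldh1a2 also rose. Rarg had 1 lower probe, and Crabp2 was lower. That made 4 higher, 2 lower and 9 that did not pass, where 53.8% of all probes passed, 27.2% higher and 26.7% lower, and 10.4% by at least 2-fold. The median change was 0.17 for the members and -0.02 for all probes, and levels were apart at 6 of the 15 probes, against 37.3% of all probes kept. Since every zone enters 2 of the 3 comparisons, these are not independent of each other.

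**Figure D2:**
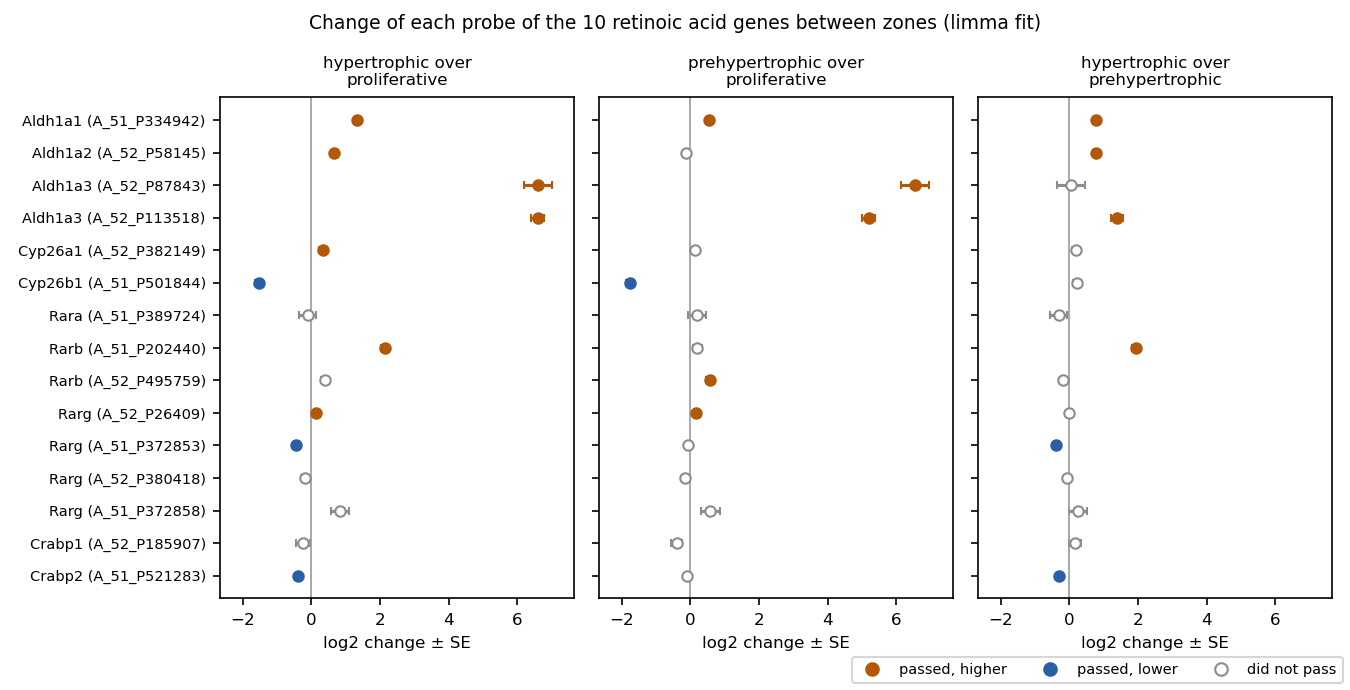
Log2 change ± SE of each of the 15 probes in the 3 comparisons, later zone over earlier zone, with filled points for probes that passed and open points for those that did not. Aldh1a3 stands at 5.19 to 6.59 in both comparisons with the proliferative zone, Cyp26b1 at -1.54 and -1.77, and Rarb probe A_51_P202440 at 2.14 and 1.93 in the comparisons of the hypertrophic zone.

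Aldh1a3, a retinaldehyde dehydrogenase that makes retinoic acid from retinal, had the largest change of the 10 genes and was already high in the prehypertrophic zone. Its probe A_52_P113518, which was not saturated in any sample, had levels (log2 intensity) of 10.73, 9.86, 9.96 and 9.53 in proliferative samples 1 to 4. In prehypertrophic samples the levels were 14.79, 14.97, 15.16 and 15.12, and in hypertrophic samples 16.67, 16.68, 16.33 and 16.64. The 3 zones did not overlap, and each step of maturation was higher than the one before it. The fitted log2 change was 6.59 ± 0.18 in hypertrophic against proliferative samples (96.2-fold, adjusted p = 4.45e-05) and 5.19 ± 0.18 in prehypertrophic against proliferative samples (36.6-fold, adjusted p = 0.00014). Hypertrophic samples exceeded prehypertrophic ones by 1.40 ± 0.18 (2.63-fold, adjusted p = 0.00405). On single arrays the later zone exceeded the earlier one by 5.94 and 6.81 for hypertrophic over proliferative, 5.20 and 5.60 for prehypertrophic over proliferative, and 1.54 and 1.67 for hypertrophic over prehypertrophic.

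The second Aldh1a3 probe, A_52_P87843, was saturated in all 4 hypertrophic samples and in 1 prehypertrophic sample. Its levels were 12.19, 10.44, 10.47 and 9.98 in proliferative samples, 17.03, 16.45, 17.69 and 16.82 in prehypertrophic samples, and 17.74, 17.08, 17.65 and 16.94 in hypertrophic samples. Proliferative samples lay far below all others, and the other zones overlapped at the top of the scanner's range. Hypertrophic samples were at least 95.9-fold higher than proliferative ones (adjusted p = 0.000349), a bound taken from the mean levels because saturated spots give only a minimum. Prehypertrophic against proliferative samples passed as well, with a fitted change of 6.53 ± 0.41 (adjusted p = 0.000572) whose size is not exact because the fit includes saturated spots. On array 5, where neither spot was flagged as saturated, the log2 ratio of prehypertrophic over proliferative was 7.22. The processed intensity of that prehypertrophic spot, 249696, lay above those of this probe's flagged spots (116329 to 237402), so this ratio may not be exact either. Hypertrophic against prehypertrophic samples gave 0.06 ± 0.41 (adjusted p = 0.911), and since spots of both zones were saturated no fold is given. The rise between these zones therefore rests on the unsaturated probe. Proliferative sample 1 had the highest Aldh1a3 level of its zone on both probes. It also had the highest leukocyte and marrow sum (33356), erythroid sum (148694) and hypertrophic marker sum (12002) of its zone. In prehypertrophic samples the leukocyte and marrow sum overlapped the proliferative range. Prehypertrophic sample 1 had the highest leukocyte and marrow sum of its zone (38121) and the lowest Aldh1a3 level on the unsaturated probe (14.79). On probe A_52_P87843 it was not the lowest: it read 17.03, and sample 2 was lowest at 16.45. The part of other cells in the Aldh1a3 changes was not tested.

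Aldh1a1, a second enzyme of the same family, rose at each step by less. Its probe read 11.71, 11.76, 12.05 and 11.9996 in proliferative samples, 12.64, 12.36, 12.48 and 12.52 in prehypertrophic samples and 13.15, 13.10, 13.30 and 13.15 in hypertrophic samples. No 2 zones overlapped, and the spread within a zone was at most 0.17 (SD, n = 4). The change was 1.33 ± 0.06 in hypertrophic against proliferative samples (2.51-fold, adjusted p = 0.00015), 0.54 ± 0.06 in prehypertrophic against proliferative samples (1.45-fold, adjusted p = 0.00348) and 0.79 ± 0.06 in hypertrophic against prehypertrophic samples (1.73-fold, adjusted p = 0.000893). All 6 arrays had the later zone higher, by 0.43 to 1.44.

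Aldh1a2, the enzyme that supplies most retinoic acid in the early embryo, was higher only in comparisons that involve the hypertrophic zone. Levels were 8.93, 9.31, 8.93 and 9.08 in proliferative samples, 8.64, 8.70, 8.85 and 8.87 in prehypertrophic samples and 9.75, 9.74, 9.53 and 9.30 in hypertrophic samples. Hypertrophic sample 4 fell just below proliferative sample 2, whose spot was flagged as an outlier, so these zones overlapped. The other proliferative samples lay below all hypertrophic samples. The prehypertrophic samples lay below both other zones. The fit, which used 5 array ratios because a spot of array 2 was flagged as an outlier, gave 0.65 ± 0.06 in hypertrophic against proliferative samples (1.57-fold, adjusted p = 0.00318) and 0.77 ± 0.05 in hypertrophic against prehypertrophic samples (1.71-fold, adjusted p = 0.00153). Prehypertrophic against proliferative samples differed by -0.12 ± 0.05, which did not pass (adjusted p = 0.149). The leukocyte, endothelial, osteoclast and bone marker sums were also highest in the hypertrophic zone, and their part in the rise of Aldh1a2 and Aldh1a1 was not tested.

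Cyp26b1, which hydroxylates retinoic acid and is the breakdown enzyme best known from developing cartilage and limb, moved the other way and did so at the first step. It read 11.82, 11.69, 11.80 and 11.62 in proliferative samples, 9.61, 9.69, 9.82 and 10.20 in prehypertrophic samples and 10.11, 10.18, 9.97 and 9.92 in hypertrophic samples. Every proliferative sample lay above every other sample, and the later zones overlapped each other. The change was -1.77 ± 0.11 in prehypertrophic against proliferative samples (3.41-fold lower, adjusted p = 0.00056) and -1.54 ± 0.11 in hypertrophic against proliferative samples (2.91-fold lower, adjusted p = 0.000541). Hypertrophic against prehypertrophic samples gave 0.23 ± 0.11, which did not pass (adjusted p = 0.151). All 4 arrays with a proliferative sample had the later zone lower, with log2 ratios of -1.42 to -1.98.

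Cyp26a1, the breakdown enzyme whose promoter carries the repeat printed above, changed little. Levels were 8.27, 7.81, 8.41 and 8.21 in proliferative samples, 8.91, 8.56, 8.17 and 8.52 in prehypertrophic samples and 8.61, 8.32, 8.86 and 8.76 in hypertrophic samples. All 3 zones overlapped. Hypertrophic samples were higher than proliferative ones by 0.32 ± 0.09 (1.25-fold, adjusted p = 0.043), and neither prehypertrophic against proliferative samples (0.14 ± 0.09, adjusted p = 0.3) nor hypertrophic against prehypertrophic samples (0.18 ± 0.09, adjusted p = 0.175) passed. The call was lost when any of arrays 1, 2, 3, 4 or 6 was left out (adjusted p 0.0506 to 0.162) and without a dye term (adjusted p = 0.101).

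**Figure D3:**
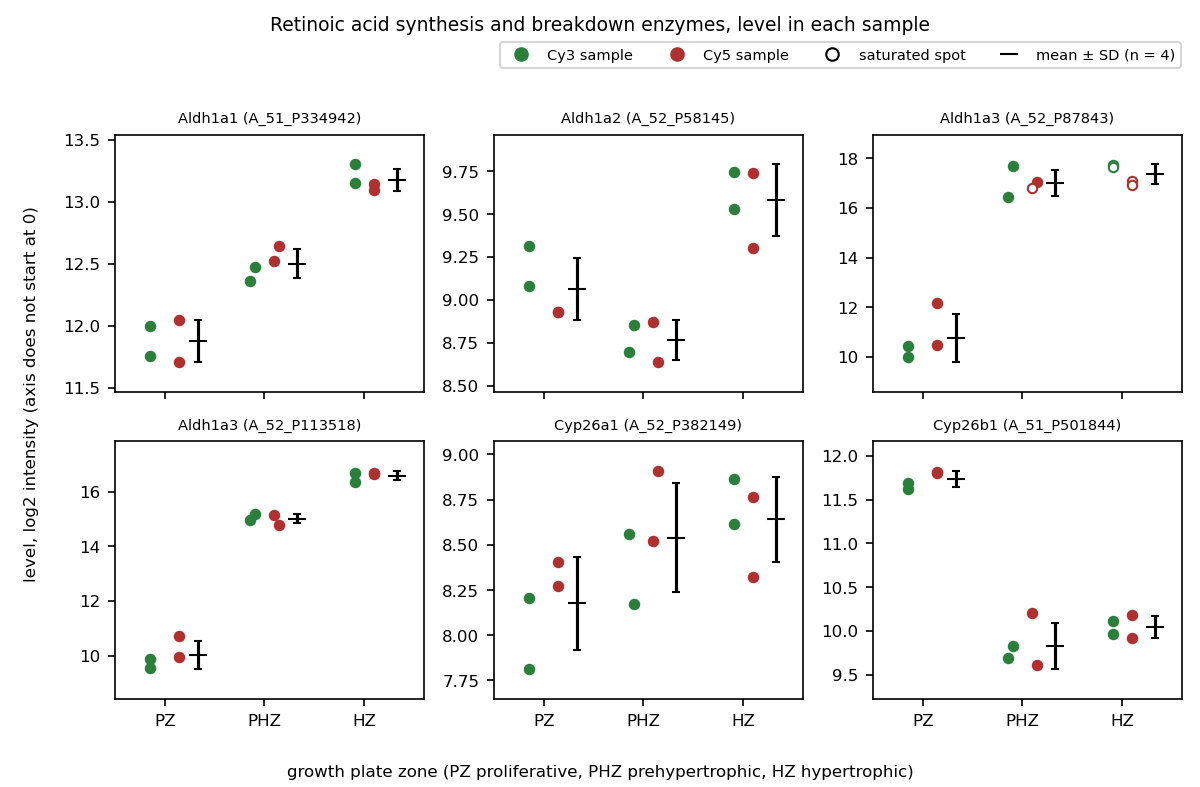
Level (log2 intensity, an axis that does not start at 0 and differs between panels) of each synthesis and breakdown probe in each sample, by zone in order of maturation, coloured by dye, with open symbols for saturated spots and bars for mean ± SD (n = 4). Aldh1a3 probe A_52_P113518 lies at 9.53 to 10.73, 14.79 to 15.16 and 16.33 to 16.68 in the 3 zones, while Cyp26b1 lies at 11.62 to 11.82 in proliferative samples and at 10.20 or below elsewhere.

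Among the receptors Rarb changed most, in 1 of its 2 probes. Probe A_51_P202440, matched by the annotation to a RefSeq transcript, read 8.39, 8.03, 8.15 and 8.84 in proliferative samples, 8.68, 8.28, 8.20 and 9.01 in prehypertrophic samples and 10.63, 10.14, 10.38 and 10.38 in hypertrophic samples. All hypertrophic samples lay above all others, and the earlier zones overlapped. The change was 2.14 ± 0.10 in hypertrophic against proliferative samples (4.40-fold, adjusted p = 0.000708) and 1.93 ± 0.10 in hypertrophic against prehypertrophic samples (3.82-fold, adjusted p = 0.00109), from 5 array ratios because of an outlier spot on array 6. Prehypertrophic against proliferative samples gave 0.20 ± 0.12 (adjusted p = 0.289). On single arrays hypertrophic exceeded proliferative samples by 2.23 and 2.11 and prehypertrophic samples by 1.70 and 2.10.

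The second Rarb probe, A_52_P495759, did not follow the first: the levels of the probes correlated at 0.06 over the 12 samples, which share zones and arrays. It read 6.92, 8.01, 7.14 and 7.63 in proliferative samples, 7.61, 7.67, 7.85 and 8.25 in prehypertrophic samples and 7.14, 8.56, 7.60 and 7.52 in hypertrophic samples, with all zones overlapping. Prehypertrophic against proliferative samples gave 0.57 ± 0.10 (1.48-fold, adjusted p = 0.0256), a call lost without array 4, 5 or 6 (adjusted p 0.0805 to 0.21). Hypertrophic against proliferative samples gave 0.40 ± 0.12 (adjusted p = 0.0722) and hypertrophic against prehypertrophic samples -0.17 ± 0.10 (adjusted p = 0.245). With both probes averaged before the fit, Rarb was 1.58 higher in hypertrophic than in proliferative samples. It was 1.00 higher in hypertrophic than in prehypertrophic samples, and both passed. Prehypertrophic against proliferative samples then gave 0.58, which passed as well (adjusted p = 0.0292). Because of outlier spots, array 2 entered this average with probe A_51_P202440 alone, and array 6 with probe A_52_P495759 alone. The larger rise of Rarb in hypertrophic samples was thus that of probe A_51_P202440. The second probe passed as higher in hypertrophic than in proliferative samples under 6 of 15 alternatives (lowest adjusted p = 0.00429). The leukocyte, endothelial, osteoclast and bone marker sums were also highest in the hypertrophic zone, and their part in the rise of Rarb was not tested.

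Rarg, known as the main retinoic acid receptor of cartilage, had 4 probes that differed in direction and size. Probe A_51_P372853 read 10.70, 10.60, 11.25 and 10.91 in proliferative samples, 10.45, 10.58, 11.08 and 10.97 in prehypertrophic samples and 10.08, 10.30, 9.99 and 10.29 in hypertrophic samples. The hypertrophic samples lay below all others. This probe fell by 0.45 ± 0.03 in hypertrophic against proliferative samples (1.37-fold lower, adjusted p = 0.000649) and fell by 0.39 ± 0.03 in hypertrophic against prehypertrophic samples (1.31-fold lower, adjusted p = 0.00122), while prehypertrophic against proliferative samples gave -0.06 ± 0.03 (adjusted p = 0.237).

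The brightest Rarg probe, A_52_P26409, was nearly level across the zones, at 11.16 to 11.87 in proliferative, 11.68 to 12.05 in prehypertrophic and 11.29 to 11.67 in hypertrophic samples. Within arrays it was 0.15 ± 0.03 higher in hypertrophic than in proliferative samples (1.11-fold, adjusted p = 0.0107) and 0.16 ± 0.03 higher in prehypertrophic than in proliferative samples (1.12-fold, adjusted p = 0.00999). Across arrays the zone means of hypertrophic and proliferative samples differed by less than 0.01, so this small call rests on the pairing of samples on arrays. Hypertrophic against prehypertrophic samples gave -0.02 ± 0.03 (adjusted p = 0.624), although their levels did not overlap. The higher calls were lost without array 1 or 2 in the first comparison (adjusted p 0.0536 and 0.0632) and without array 5 or 6 in the second (adjusted p 0.053 and 0.0729). Probes A_52_P380418 and A_51_P372858 passed in no comparison. Their changes in hypertrophic against proliferative samples were -0.20 ± 0.11 (adjusted p = 0.237) and 0.83 ± 0.27 (adjusted p = 0.0575), although the levels of A_51_P372858 were apart, at 7.19 to 7.45 in hypertrophic and 5.99 to 7.04 in proliferative samples. A statement on Rarg as 1 gene would depend on the probe.

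Rara, a receptor found in most tissues, was dim, and 2 of the 4 hypertrophic samples were not well above background. Its levels were 6.51 to 7.20 in proliferative, 6.34 to 7.55 in prehypertrophic and 5.90 to 7.23 in hypertrophic samples. The changes of -0.11 ± 0.26 in hypertrophic against proliferative samples (adjusted p = 0.736), 0.20 ± 0.26 in prehypertrophic against proliferative samples (adjusted p = 0.59) and -0.31 ± 0.26 in hypertrophic against prehypertrophic samples (adjusted p = 0.36) did not pass. The SE of 0.26 was larger than that of Aldh1a2 (0.05 to 0.06), so a change as small as that of Aldh1a2 was less easily detected here.

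**Figure D4:**
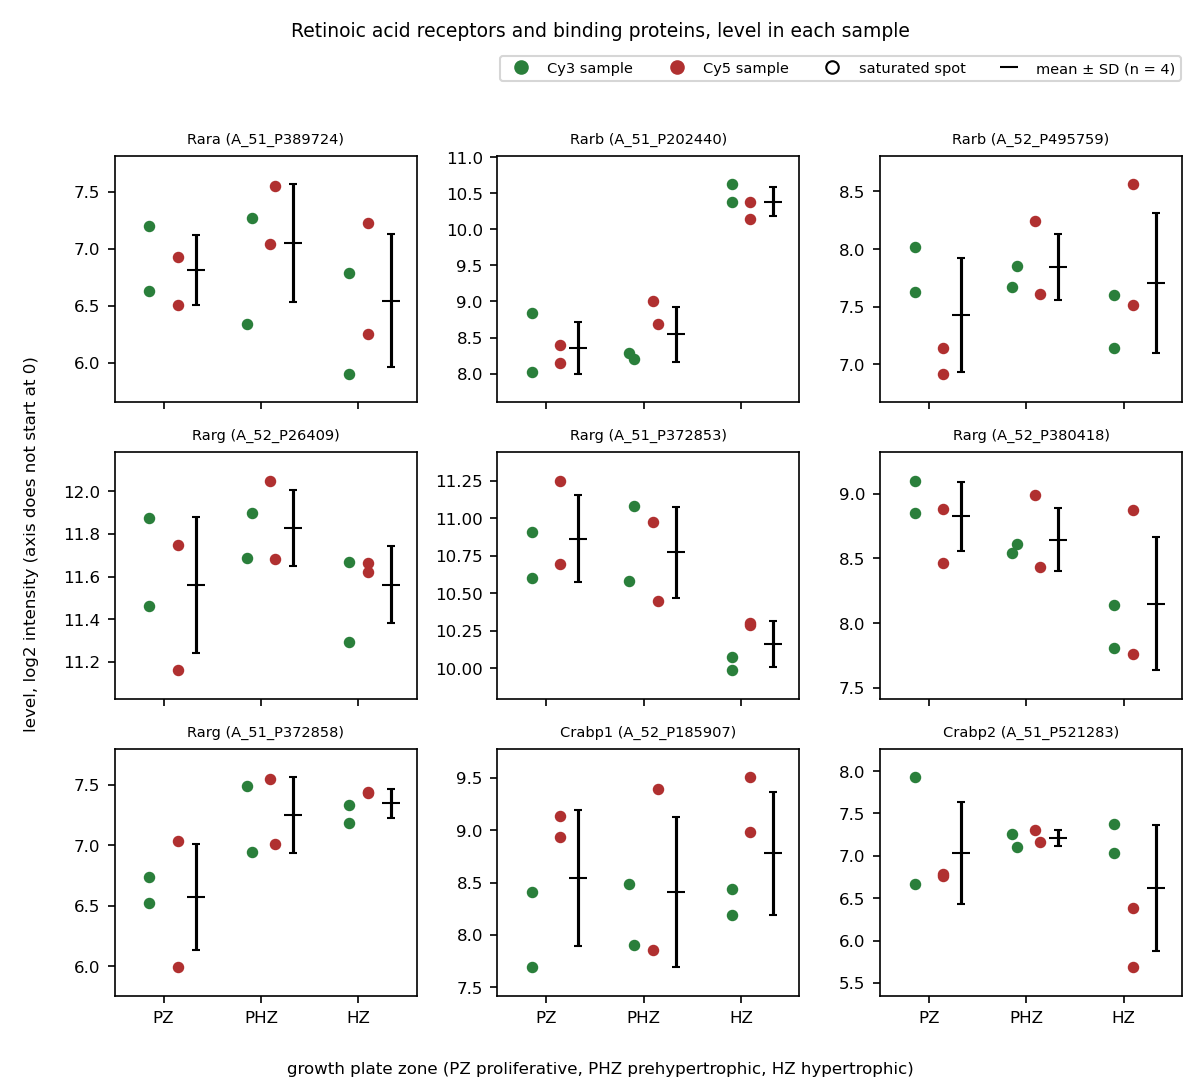
Level (log2 intensity, axes differ between panels and do not start at 0) of each receptor and binding protein probe in each sample, by zone in order of maturation, coloured by dye, with bars for mean ± SD (n = 4). Rarb probe A_51_P202440 lies at 10.14 or above in all hypertrophic samples and at 9.01 or below in all others, while all zones overlap for the second Rarb probe and for Rarg probe A_52_P380418.

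The binding proteins changed little, and their readings depended on the dye. Crabp2, which carries retinoic acid to the receptors, had levels of 6.66 to 7.93 in proliferative, 7.11 to 7.31 in prehypertrophic and 5.69 to 7.38 in hypertrophic samples, with all zones overlapping. The fit gave -0.39 ± 0.06 in hypertrophic against proliferative samples (1.31-fold lower, adjusted p = 0.00524), -0.29 ± 0.06 in hypertrophic against prehypertrophic samples (1.22-fold lower, adjusted p = 0.0147) and -0.11 ± 0.06 in prehypertrophic against proliferative samples (adjusted p = 0.218). On the 2 arrays of hypertrophic and proliferative samples the ratio was 0.27 with the hypertrophic sample in Cy3 and -0.98 with it in Cy5. The channel labelled Cy5 was the lower one on all 6 arrays, and the fitted dye term, Cy5 over Cy3, was -0.55 ± 0.04. Without a dye term neither call remained (adjusted p = 0.402 and 0.546), and the call against prehypertrophic samples was also lost without array 3 or 4 (adjusted p 0.0804 and 0.0884).

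Crabp1, the related protein known for directing retinoic acid to breakdown, had the opposite dye term, 0.78 ± 0.13, with Cy5 higher on all 5 arrays that gave a ratio. Its levels spread over 7.69 to 9.14 in proliferative, 7.86 to 9.40 in prehypertrophic and 8.19 to 9.51 in hypertrophic samples. The changes of -0.24 ± 0.21 in hypertrophic against proliferative samples (adjusted p = 0.404), -0.40 ± 0.17 in prehypertrophic against proliferative samples (adjusted p = 0.17) and 0.17 ± 0.17 in hypertrophic against prehypertrophic samples (adjusted p = 0.486) did not pass.

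As a description, the 19351 other genes, 1 probe each, were ranked by the correlation of their levels with each member's brightest probe over the 12 samples, which share zones and arrays. The genes most like Aldh1a3 were Alpl, the alkaline phosphatase of mineralising cartilage and bone, at 0.994, then Ihh at 0.993 and Pappa, a secreted protease, at 0.991. The brightest Aldh1a3 probe is the saturated one, so its highest levels are minimum values. Cyp26b1 was most like Neurl1b (0.997), Sertad4 (0.995) and Sh3pxd2a (0.994). For Aldh1a1 the closest genes were Klhl25 (0.991), Ehd4 and Fhl1 (0.985 each), and for Aldh1a2 they were Lct (0.963), H1f3 (0.963) and Kank3 (0.959). Rarb was closest to Paqr9 (0.985), Pcdh12, a cadherin of endothelial cells (0.983), and Add2, a protein of the red cell skeleton (0.983). The highest values of the other members were 0.920 for Cyp26a1 with Vat1, 0.983 for Rara with Cd177, 0.986 for Rarg with Gm5433, 0.933 for Crabp1 with 4930567K12Rik and 0.942 for Crabp2 with Serpina1c. Between the members, Aldh1a3 and Cyp26b1 ran opposite, at -0.95.

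Around these genes, 56 others of retinoid uptake, storage, oxidation, binding, receptors, coregulators and known targets were listed, and 48 had a test on their brightest probe. In hypertrophic against proliferative samples 17 were higher, 14 lower and 17 did not pass, where 62.1% of all genes passed, 30.4% higher and 31.7% lower. In prehypertrophic against proliferative samples 14 were higher, 11 lower and 23 did not pass, where 48.8% of all genes passed, 24.3% higher and 24.5% lower. In hypertrophic against prehypertrophic samples 17 were higher, 19 lower and 12 did not pass, where 61.5% of all genes passed, 30.8% higher and 30.7% lower. The median changes were 0.05, 0.02 and 0.04. The list as a whole did not lean to 1 side, with 31, 25 and 36 of its 48 genes called in the 3 comparisons. At least a 2-fold change was reached by 16.3%, 8.6% and 11.6% of all genes in the 3 comparisons, and by 11, 9 and 14 of the 48 listed genes. In any of the 3 comparisons it was reached by 18 of the 48 (37.5%) and by 21.5% of all genes. The 18 are described by role.

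Of 10 tested genes of retinol uptake and storage, 5 were higher, 2 lower and 3 did not pass in hypertrophic against proliferative samples. Rbp4, the carrier of retinol in blood, had its lowest level in the prehypertrophic zone, at 13.70 to 14.05, 11.93 to 12.39 and 15.93 to 16.14 in proliferative, prehypertrophic and hypertrophic samples. It was 2.14 ± 0.05 higher in hypertrophic than in proliferative samples (adjusted p = 3.85e-05), fell by 1.73 ± 0.05 in prehypertrophic against proliferative samples (adjusted p = 0.000117), and was 3.88 ± 0.05 higher in hypertrophic than in prehypertrophic samples (adjusted p = 6.54e-05). Rbp7, a cellular retinol-binding protein, rose by 2.29 ± 0.14 in hypertrophic against proliferative samples (adjusted p = 0.000328) on its brighter probe, while the other probe gave -0.62 ± 0.58 (adjusted p = 0.418). Lrat, which esterifies retinol for storage, fell by 1.21 ± 0.22 in hypertrophic against proliferative samples (adjusted p = 0.0117) and fell by 1.31 ± 0.22 in prehypertrophic against proliferative samples (adjusted p = 0.0117), and its second probe was lower in both as well. Dgat1, an acyltransferase that can also esterify retinol, rose by 1.04 ± 0.03 in hypertrophic against prehypertrophic samples (adjusted p = 8.66e-05).

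Of 19 tested genes listed for oxidation and reduction of retinol and retinal, 6 were higher, 8 lower and 5 did not pass in hypertrophic against proliferative samples. Among the lower ones was the aldehyde dehydrogenase Aldh8a1, by less than 2-fold (-0.59 ± 0.03, adjusted p = 0.00019). Dhrs9, a dehydrogenase that acts on retinol, rose most, by 3.48 ± 0.15 in hypertrophic against proliferative samples (adjusted p = 0.00013), with levels of 11.90 to 12.17 in hypertrophic and 6.25 to 9.12 in proliferative samples. Its dimmer probe gave 1.05 ± 0.23 (adjusted p = 0.0193). Rdh5 was 1.14 ± 0.03 higher (adjusted p = 3.96e-05), and Adh7, an alcohol dehydrogenase with high activity on retinol, 1.98 ± 0.28 higher in hypertrophic than in proliferative samples (adjusted p = 0.00472), with only 2 of its 4 proliferative samples well above background. Dhrs3, which reduces retinal back to retinol, fell by 1.13 ± 0.07 in prehypertrophic against proliferative samples (adjusted p = 0.000521) and was 1.27 ± 0.07 higher in hypertrophic than in prehypertrophic samples (adjusted p = 0.00031). Rdh11 had the reverse profile: it was 1.02 ± 0.03 higher in prehypertrophic than in proliferative samples (adjusted p = 0.000133) and fell by 2.00 ± 0.03 in hypertrophic against prehypertrophic samples (adjusted p = 6.59e-05), and both of its probes agreed in direction.

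Adh1 was also highest in the prehypertrophic zone, 1.05 ± 0.05 above proliferative samples (adjusted p = 0.000233) and fell by 0.64 ± 0.05 in hypertrophic against prehypertrophic samples (adjusted p = 0.000715). Dhrs7 was 0.76 ± 0.03 higher in prehypertrophic than in proliferative samples (adjusted p = 0.000209) and fell by 1.12 ± 0.03 in hypertrophic against prehypertrophic samples (adjusted p = 8.41e-05). Rdh10, the main enzyme that oxidises retinol to retinal in the embryo, was singled out after its values were seen because its probes differed in size. The brightest of 3 gave 0.79 ± 0.04 in hypertrophic against proliferative samples (adjusted p = 0.00025), and the others 3.12 ± 0.07 (adjusted p = 3.08e-05) and 3.09 ± 0.05 (adjusted p = 2.78e-05). In prehypertrophic against proliferative samples the 3 probes gave 0.52 ± 0.04 (adjusted p = 0.0014), 2.03 ± 0.07 (adjusted p = 0.000127) and 2.10 ± 0.05 (adjusted p = 7.59e-05). All 3 were therefore higher in both later zones, as Aldh1a3 and Aldh1a1 were.

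Fabp5, which can shuttle retinoic acid to the receptor Ppard, was 1.54 ± 0.04 higher in hypertrophic than in proliferative samples (adjusted p = 4.64e-05) and 1.43 ± 0.04 higher in hypertrophic than in prehypertrophic samples (adjusted p = 9.1e-05). Of the 4 other receptors listed (Rxra, Rxrb, Rxrg and Ppard) 1 was higher and 1 lower in each comparison on the brightest probe, none by 2-fold. The lower one was Rxra, at -0.61 ± 0.03 in hypertrophic against proliferative samples (adjusted p = 0.000211). Its other probe gave 0.21 ± 0.06 there (adjusted p = 0.0348), so its direction depended on the probe. Among 5 tested coregulators, the coactivator Ncoa3 was 2.61 ± 0.05 higher in hypertrophic than in proliferative samples on its brightest probe (adjusted p = 3e-05) and 1.74 ± 0.09 higher on a second (adjusted p = 0.000185), while the third gave 0.05 ± 0.03 (adjusted p = 0.219). Nrip1, a corepressor that is itself induced by retinoic acid in cell culture, rose in hypertrophic against proliferative samples on all 3 probes, by 2.04 ± 0.06 (adjusted p = 4.88e-05), 1.39 ± 0.04 (adjusted p = 4.82e-05) and 0.65 ± 0.04 (adjusted p = 0.000342).

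Known target genes did not move together: of 9 tested, 2 were higher, 3 lower and 4 did not pass in hypertrophic against proliferative samples. Meis2, a homeobox gene that retinoic acid induces in the proximal limb, was lower on all 3 probes in that comparison, with changes of -2.36 ± 0.08 (adjusted p = 7.08e-05), -2.27 ± 0.03 (adjusted p = 2.78e-05) and -1.07 ± 0.04 (adjusted p = 9.59e-05). Meis1, a related homeobox gene singled out after its values were seen, is not among the 9 because its brightest probe had no test. Its other probe gave -2.30 ± 0.16 in hypertrophic against proliferative samples (adjusted p = 0.00177) and -2.04 ± 0.13 in prehypertrophic against proliferative samples (adjusted p = 0.00216), where the brightest gave 0.07 ± 0.12 and -0.68 ± 0.10. Rarres1 was 1.01 ± 0.04 higher in prehypertrophic than in proliferative samples (adjusted p = 0.000211) and fell by 1.83 ± 0.04 in hypertrophic against prehypertrophic samples (adjusted p = 7.19e-05). Tgm2, a transglutaminase of mineralising cartilage, was 1.63 ± 0.03 higher in prehypertrophic than in proliferative samples (adjusted p = 6.52e-05) and 1.23 ± 0.03 higher in hypertrophic than in proliferative samples (adjusted p = 3.19e-05) on its brightest probe. Its other 2 probes gave -0.62 ± 0.06 (adjusted p = 0.00109) and -0.21 ± 0.12 (adjusted p = 0.223) in hypertrophic against proliferative samples, so its direction depended on the probe. Bhlhe40, a transcription factor, was 1.25 ± 0.05 higher in hypertrophic than in prehypertrophic samples (adjusted p = 0.000181). Rises in the comparisons of the hypertrophic zone came with the higher marker sums of marrow, vessel and bone cells given above, whose part in them was not tested.

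**Figure D5:**
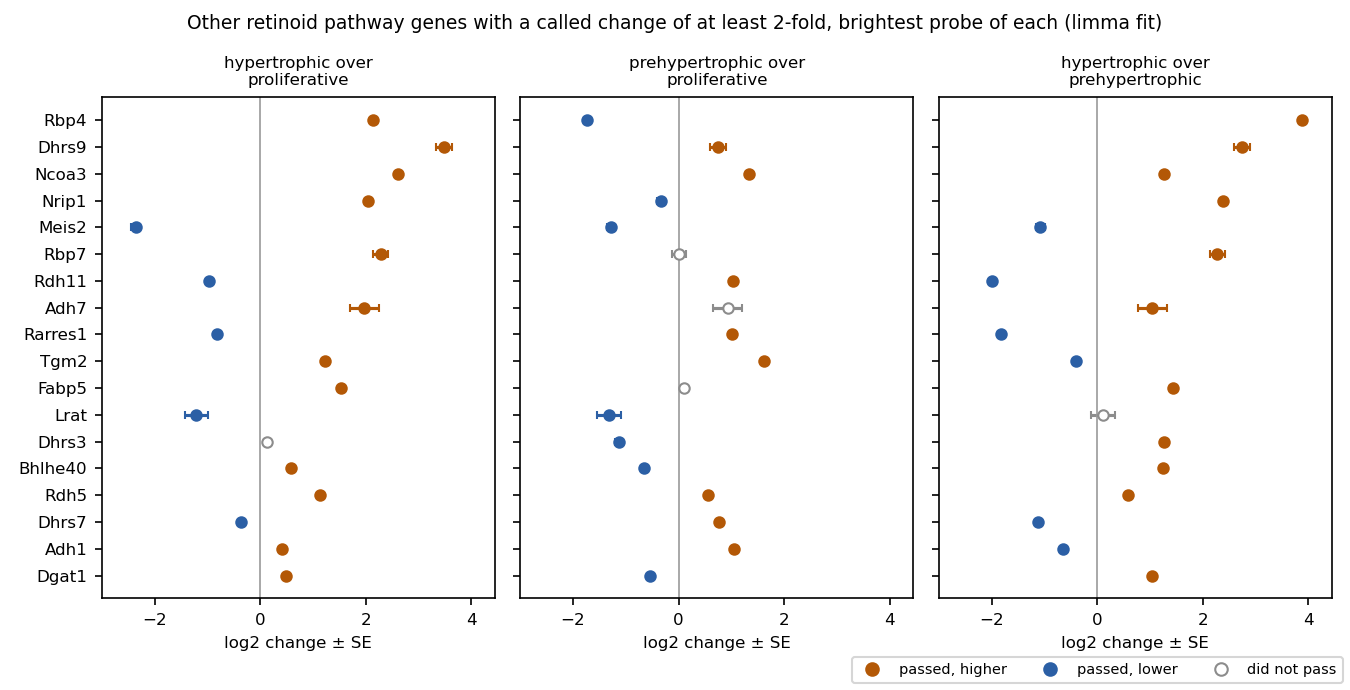
Log2 change ± SE of the 18 other retinoid pathway genes that passed with at least a 2-fold change in some comparison (brightest probe of each), later zone over earlier zone, filled where the change passed. Rbp4 stands at 2.14, -1.73 and 3.88 in the 3 comparisons, and Meis2 at -2.36, -1.28 and -1.08.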

How the data were processed

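The authors deposited 1 scanner file per sample, with the intensity of that sample's channel as processed by Agilent Feature Extraction 8.1.1.1 (background subtracted and dyes normalized within the array, per the file headers). Other deposited values, flags of 0 or 1 per spot, mark saturation, outliers and spots well above background. A deposited table of log2 values by probe was used only to check its names. Only 1 of its 12 columns was closest to the scanner file of the sample it names, and 6 were closest to a file of that zone, so it was not used further. All 12 columns were closest to the scanner file that holds the same place when the samples are sorted by title. The zone of every value here rests on the names of the scanner files, which were preferred because the labelled dye equals the file's channel in all 12 samples and each of the 6 arrays then holds 2 zones. Under these names every correlation of levels within a zone (0.968 to 0.982) lay above every correlation between zones (0.889 to 0.961). The same correlations were not computed under the names of the value table. Which naming is right is not stated in the files.

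Channels of 1 array were matched spot by spot, and their log2 ratios were normalized within arrays by loess. Ratios with an outlier flag were left out (7249), spots of 1 probe were averaged, and probes with 4 or more samples well above background were kept (40017 of 41174). A linear model with zone and dye terms was fitted to the 6 ratios of each probe with limma 3.58.1 in R 4.3.3 (lmFit and eBayes, 3 residual and 1.21 prior degrees of freedom). P-values were adjusted by the Benjamini-Hochberg method over all probes tested, with a threshold of 0.05. Levels are log2 intensities after loess and Aquantile scaling between arrays, so zone means need not differ by exactly the fitted change, and levels of different probes cannot be compared. The number of arrays limits the precision. The procedure was tested on simulated data with independent noise and known changes added through the same model. That test could not cover saturation, dye effects or a shared origin of samples.

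Symbols came from the array annotation, which named 1 gene for 32691 probes and none for 8483. A gene's brightest probe stands for it in the list of other pathway genes, where those called with at least a 2-fold change are named. The 10 genes and all lists were chosen with earlier results of these data known. The 8 listed pathway genes without a test on their brightest probe are not in the counts. Alternatives were tried for the normalization within arrays, the dye term, variance moderation, flagged spots, the dim filter, probe choice, each array in turn, averaging dye-swapped pairs, a fit of single channels and a replicate block.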

Additional observations from a re-analysis of the deposited data

Results flagged for a closer look

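In 3 of the 45 sets of 4 samples (15 probes in 3 zones) 1 sample stood apart from the other 3 by Dixon's test, and chance alone gives about 1 in 20. Hypertrophic sample 3 had an Aldh1a3 level of 16.33 on probe A_52_P113518, against 16.64 to 16.68 in the others, a small gap beside the distance to the other zones. Hypertrophic sample 1 had a Rarg level of 11.29 on probe A_52_P26409, against 11.62 to 11.67. Proliferative sample 4, measured in Cy3, had a Crabp2 level of 7.93, against 6.66 to 6.78.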

How the results depend on the processing

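Of the 45 member results (15 probes in 3 comparisons) 22 passed, and 16 of these passed under all 18 alternatives that could give them a value; 0 changed direction in any. The other 6 were lost in some: Cyp26a1, Crabp2 and Rarg probe A_52_P26409 in hypertrophic against proliferative samples, Crabp2 in hypertrophic against prehypertrophic samples, and Rarb probe A_52_P495759 and Rarg probe A_52_P26409 in prehypertrophic against proliferative samples. Of the 23 that did not pass, 12 passed under no alternative and 11 under some. With 1 probe a gene, 8, 4 and 4 of 10 members passed in hypertrophic against proliferative, prehypertrophic against proliferative and hypertrophic against prehypertrophic samples. With dye-swapped pairs averaged the first became 4 and the last 2, of only 7 genes that could be tested. Leaving out 1 array at a time gave 8 to 11, 4 to 7 and 5 to 7 called probes (10, 6 and 6 with all), 6 to 8, 3 to 5 and 3 to 5 called genes, and 25 to 30, 19 to 24 and 26 to 34 called pathway genes (31, 25 and 36 with all). Samples with the same replicate number correlated in their deviations from the zone means at -0.24 to 0.57 (12 pairs, 6 over 0.1, 4 on a shared array). Since not every pair was over 0.1, the main fit did not pair the samples by these numbers. The leukocyte and marrow sums of samples 1 to 4 were 33356, 18762, 11609 and 11922 in the proliferative zone. They were 38121, 19689, 14017 and 13713 in the prehypertrophic zone, and 589931, 485048, 568572 and 446820 in the hypertrophic zone. Samples 3 and 4 of the first 2 zones share an array, while samples 1 and 2 of these zones lay on different arrays. Erythroid sums of samples 1 and 2 were 148694 and 32099 in the proliferative zone and 164003 and 26374 in the prehypertrophic zone. A shared origin of samples with the same number is therefore not excluded, and the p-values of the main fit do not allow for it. In a fit of single channels, adding the replicate number as a block gave 12, 7 and 6 called probes, and over all probes it moved the counts to 24244, 18603 and 21087, against 24503, 19567 and 24234 without the block. With it Rarg probe A_52_P26409 no longer passed in hypertrophic against proliferative samples (0.10, adjusted p = 0.142), nor Crabp2 in hypertrophic against prehypertrophic samples (-0.33, adjusted p = 0.101). Normexp background correction was not run, since the files used hold no mean and background signals. Signal over background limits Rara most.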

Other observations

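The repeat searched in the promoters of the 10 genes was also looked up in all others, a choice made after the data were seen. Of the 28 genes with it, 9 had a test, Rarb and Cyp26a1 among them. In hypertrophic against proliferative samples 7 were higher, 0 lower and 2 did not pass, with a median log2 change of 0.82 against -0.03 over all genes, of which 30.4% were higher. That median is the value of a single gene, Prokr2, which did not pass (0.82 ± 0.66, adjusted p = 0.373). Beside Rarb (2.14) and Cyp26a1 (0.32), the higher ones were Blvrb (2.72), Hbb-y (2.75), Ppbp (1.30), Cfap45 (0.49) and Tnfsf13b (0.20). Hbb-y is an embryonic globin, Blvrb is abundant in red cells and Ppbp in platelets. The erythroid markers were higher in the same samples, at a summed 234126 to 370026 in hypertrophic and 32099 to 148694 in proliferative samples, and their part in these changes was not tested. In prehypertrophic against proliferative samples 4 of the 9 were higher, 0 lower and 5 did not pass, where 24.3% of all genes were higher and 24.5% lower. In hypertrophic against prehypertrophic samples 4 were higher, 1 lower and 4 did not pass, where 30.8% of all genes were higher and 30.7% lower. Prokr2, a G protein-coupled receptor, had the largest change of the 9 in prehypertrophic against proliferative samples, at 4.07 ± 0.55 (adjusted p = 0.0132), and fell by 3.25 ± 0.55 in hypertrophic against prehypertrophic samples (adjusted p = 0.0185).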
